A study of Homo sapiens with 6 samples.

Results

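The lncRNA genes described here are long non-coding RNA genes of RefSeq named as antisense (-AS1), divergent (-DT) or intergenic (LINC). Those taken had lower H3K27ac after BET inhibition in human multiple myeloma cell lines. The symbol is a name and does not fix how a gene lies to its coding neighbour. Members were the lncRNA genes whose symbol starts with LINC or ends in -AS1, -DT or -IT1, other than SENCR, and whose body overlapped a listed region. For a region overlapping no protein coding or lncRNA gene, the gene with the nearest boundary was taken. This gave 89 genes, tied to 89 of the 838 listed regions, out of 1029 genes assigned to any region and 205 assigned lncRNA genes. ChIP-seq for H3K27ac, an acetylation of histone H3 found at active promoters and enhancers, was done in KMS-11, KMS-12 and RPMI8226, which are malignant plasma cell lines labelled as wild type. Cells were grown with 1 µM JQ1 for 72 h, or with DMSO, its solvent, and each line gave 1 JQ1 sample and 1 DMSO sample. The deposited table holds 1 fold change per region and line, read here as log2 of JQ1 over DMSO, and nothing per sample. The file states no log base and no direction, so the direction of every change given here depends on this reading. Wherever 3 values stand together, they are those of KMS-11, KMS-12 and RPMI8226 in that order.

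LncRNAs are transcripts without a long open reading frame. A divergent transcript starts close to the start of a protein coding gene and runs the other way from the same open promoter. An antisense transcript runs over the opposite strand of the gene it is named for. An intergenic one lies between coding genes, though its start can still be near a coding start. BET proteins bind acetylated histones at such promoters and at enhancers and recruit the machinery that releases paused RNA polymerase II, and JQ1 occupies their acetyl-lysine pocket. H3K27ac is carried by nucleosomes on both sides of a start site and has no strand, so a region that holds a coding and a non-coding start has 1 value for both. The fold changes are of H3K27ac and not of RNA.

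All 838 regions had 3 values below 0, and in each of the 838 the listed number of lines matched how many values were below -0.5. Every listed region was thus past -0.5 in at least 2 lines. No value above 0 is listed, so a further condition on the third line may have applied, which is not known here. The highest values given below stand at that edge. The members were therefore chosen by the same values that are given below, and those values are a description with no test. No counts are listed, so the depth is unknown, and with 1 sample per line and treatment no fold change has an error. Of 10 plasma cell genes, IRF4, MZB1 and XBP1 had a listed region, and of 4 B cell genes none had. A table of lowered regions cannot check the label of the cells.

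The letters of the members' promoters are shown first. Of the 89 members, 76 had at least 1 start in the RefSeq promoter table (GRCh38.p14, 250 bases before to 50 after the start). In 55 of the 76 a start of the lncRNA lay inside its listed region, and in 44 the whole window of 300 bases did. The start lay inside for 50 of 56 sharing members, for 5 of 15 members with only a lncRNA gene in the region, and for none of the 5 tied by nearest boundary. Printed are the windows of the 3 sharing members with the lowest mean fold change among those whose window lies inside the region, and 1 window of each of the 4 members with no coding gene in the region that have a window wholly inside it. LINC02987 has another such window, with 19 CpG, which is not printed. CG dinucleotides are in capitals, and each window runs 5′ to 3′ on the strand of the lncRNA.
The first is CEBPB-AS1, minus strand, chr20:50192020-50192319.
CEBPB-AS1: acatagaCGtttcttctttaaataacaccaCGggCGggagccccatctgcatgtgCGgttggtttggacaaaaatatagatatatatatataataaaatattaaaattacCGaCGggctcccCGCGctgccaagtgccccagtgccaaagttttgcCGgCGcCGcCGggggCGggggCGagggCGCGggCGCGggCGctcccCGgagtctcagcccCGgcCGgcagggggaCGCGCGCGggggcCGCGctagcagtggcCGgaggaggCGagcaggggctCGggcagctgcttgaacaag
The second is POLG-DT, plus strand, chr15:89334237-89334536.
POLG-DT: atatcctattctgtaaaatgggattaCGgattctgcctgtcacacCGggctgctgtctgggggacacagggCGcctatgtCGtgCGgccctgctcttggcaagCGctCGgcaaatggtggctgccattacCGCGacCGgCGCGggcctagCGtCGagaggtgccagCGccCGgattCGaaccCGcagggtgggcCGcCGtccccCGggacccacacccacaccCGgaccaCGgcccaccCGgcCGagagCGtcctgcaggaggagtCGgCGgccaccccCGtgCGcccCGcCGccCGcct
The third is NRSN2-AS1, minus strand, chr20:325203-325502.
NRSN2-AS1: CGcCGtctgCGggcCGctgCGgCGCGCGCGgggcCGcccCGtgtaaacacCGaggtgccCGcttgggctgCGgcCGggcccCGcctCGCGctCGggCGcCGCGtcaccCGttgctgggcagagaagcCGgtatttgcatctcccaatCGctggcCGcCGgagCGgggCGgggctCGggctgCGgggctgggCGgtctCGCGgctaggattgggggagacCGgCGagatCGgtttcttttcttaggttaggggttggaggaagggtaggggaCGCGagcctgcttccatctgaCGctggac
Those with no coding gene in the region begin with H2BC6-AS1, minus strand, chr6:26172724-26173023.
H2BC6-AS1: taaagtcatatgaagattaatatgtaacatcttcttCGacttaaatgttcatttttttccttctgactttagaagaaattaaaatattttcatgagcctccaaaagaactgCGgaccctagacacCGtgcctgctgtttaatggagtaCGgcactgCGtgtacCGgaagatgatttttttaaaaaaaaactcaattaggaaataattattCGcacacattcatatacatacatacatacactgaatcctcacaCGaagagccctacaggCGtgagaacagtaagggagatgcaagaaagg
LINC03052 is on the minus strand at chr2:95526705-95527004.
LINC03052: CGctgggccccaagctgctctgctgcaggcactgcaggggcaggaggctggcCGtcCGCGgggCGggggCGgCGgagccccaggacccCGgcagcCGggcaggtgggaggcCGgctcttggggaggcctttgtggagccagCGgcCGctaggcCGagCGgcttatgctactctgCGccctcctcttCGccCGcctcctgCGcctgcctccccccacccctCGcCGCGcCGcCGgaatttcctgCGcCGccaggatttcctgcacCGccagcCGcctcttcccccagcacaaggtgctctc
LINC00662 is on the minus strand at chr19:27793891-27794190.
LINC00662: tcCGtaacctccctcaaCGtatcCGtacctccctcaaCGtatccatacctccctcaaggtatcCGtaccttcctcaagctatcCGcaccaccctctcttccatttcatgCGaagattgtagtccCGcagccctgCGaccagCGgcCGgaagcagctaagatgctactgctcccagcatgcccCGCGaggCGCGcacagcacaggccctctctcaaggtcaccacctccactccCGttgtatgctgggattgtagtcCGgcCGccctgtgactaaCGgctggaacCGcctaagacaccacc
LINC02987 is on the plus strand at chr19:27793181-27793480, in the same listed region as LINC00662.
LINC02987: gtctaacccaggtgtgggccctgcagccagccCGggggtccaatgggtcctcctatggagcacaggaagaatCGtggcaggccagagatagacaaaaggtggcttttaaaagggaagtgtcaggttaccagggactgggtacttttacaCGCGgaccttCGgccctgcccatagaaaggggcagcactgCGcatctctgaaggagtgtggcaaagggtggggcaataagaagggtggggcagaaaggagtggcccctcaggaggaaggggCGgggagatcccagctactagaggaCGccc
The windows of CEBPB-AS1, POLG-DT and NRSN2-AS1 held 31, 33 and 40 CpG, and those of H2BC6-AS1, LINC03052, LINC00662 and LINC02987 held 9, 27, 20 and 8. Over the 60 windows with the start inside the region, which belong to 55 members, the median was 31 CpG (4 to 59) and 69.8% G and C. The median was 14 CpG and 58.7% over all 35116 windows of the table, 5 CpG over the windows of lncRNA genes and 21 over those of protein coding genes. Over all 97 windows of the 76 members, inside the region or not, the median was 27 CpG and 68% G and C. Both member medians of CpG were above those of both kinds of gene, as a description of letters. The 60 windows were kept for a start inside a listed region, and 50 of their 55 genes share it with a coding gene. Windows of other assigned genes with a start in a listed region were not compared, so high CpG is not shown to be particular to the members.

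Short motifs were searched on both strands of the same windows. CACGTG, the E-box that MYC and related factors can bind, was in 5 of the 60 windows (8.33%), against 7.26% of all windows. TGACGTCA, the cAMP response element, was in 2 (3.33%), against 1.85%. GGAAGT, the core of many ETS sites, was in 10 (16.7%), against 22.8%. TGATGNAA, part of the element bound by C/EBP and ATF4 dimers, was in none, against 3.62% of all windows. Over all 97 member windows the shares of these motifs, in the same order, were 9.28%, 3.09%, 21.6% and 1.03%. The 5 CACGTG windows included INSIG1-DT, PITX1-AS1 and OIP5-AS1, and PCGF3-AS1 gave the other two from a pair of starts 1 base apart. The 2 TGACGTCA windows were those of FBXO34-AS1 and YY1-DT. CACGTG and TGACGTCA both hold the letters ACGT.

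Of the 89 members, 67 (75.3%) shared their region with a protein coding gene and 22 did not. The symbols differed in this. All 14 LINC genes were without a coding gene, while 42 of 49 -AS1 genes and 25 of 26 -DT genes shared their region, and no -IT1 gene was a member. As shares of the annotated genes, the members were 4.39% of 592 -DT, 2.72% of 1800 -AS1, 0.606% of 2309 LINC and 0 of 77 -IT1 genes. They were 89 of all 4778 genes with these symbols, and 824 of 20052 protein coding genes were assigned to a region. The single -DT gene that did not share was CDR2-DT, tied only as the nearest boundary to a region 58461 bp away. Another 4 members were tied by nearest boundary, namely LINC01719, LINC01473, LINC01354 and LINC01451. The regions were 432 to 3485 bp wide, counting both end bases, with a median of 1488 bp in members that share and 1172 bp in those that do not, against 1165 bp over all 838 regions.

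In 55 of the 67 sharing members the coding gene in the region was the one the lncRNA is named for. In the other 12 the region held a different coding gene only. The region of NRSN2-AS1 lay over SOX12, a SOX transcription factor gene, and 20388 bp from NRSN2. ITFG2-AS1 was listed at FKBP4, an HSP90 co-chaperone gene, and ITFG1-AS1 at NETO2. RAET1E-AS1 was listed at LRP11, MCM8-AS1 at the cardiolipin synthase gene CRLS1, ATXN7L3-AS1 at UBTF, a factor of ribosomal RNA transcription, and MVP-DT at PAGR1. C1QTNF7-AS1 was listed at CPEB2, an RNA-binding protein gene, with C1QTNF7 itself 334529 bp from the region. DCST1-AS1 was listed at the ephrin gene EFNA4, IRAG1-AS1 at RNF141, and PCGF3-AS1 at LOC124900163. NDST2-ZSWIM8-AS1, named for a pair of genes, was listed at NDST2. Apart from NDST2-ZSWIM8-AS1, the namesake of these genes is not the coding gene in the region.

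Start sites gave a closer view of the shared regions. In 39 of the 76 members with a start in the table, the region held both the start of the lncRNA and that of a coding gene, and all 39 were among the 56 sharing members with an entry. Of these 56, 30 were divergent from a coding start within 1 kb, and 15 began on the opposite strand within 1 kb but on the coding gene's side of its start. Only the nearest coding start with an entry was checked, so coding genes without one were missed. CHKA-DT, RAB33B-AS1, PPP3CB-AS1 and MATN1-AS1 were thus set against starts 78908, 102178, 57588 and 39002 bp away. The 39 include NDST2-ZSWIM8-AS1 and PCGF3-AS1, whose start and the coding start are the same base on the same strand. All 22 -DT members whose namesake start was known began within 1 kb of it, with a median distance of 217 bp, against 388 of 419 (92.6%) and 173 bp among the other annotated -DT genes. Among -AS1 genes the members began nearer to their namesake. Their median distance was 636 bp, with 23 of 35 (65.7%) within 1 kb, against 10348 bp and 400 of 1113 (35.9%) among the other annotated -AS1 genes. Members were taken by a listed region, which 42 of the 49 -AS1 members share with a coding gene, so their choice and these distances are not independent. These distances come from the annotation, and no test of the difference was made.

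**Figure D1:**
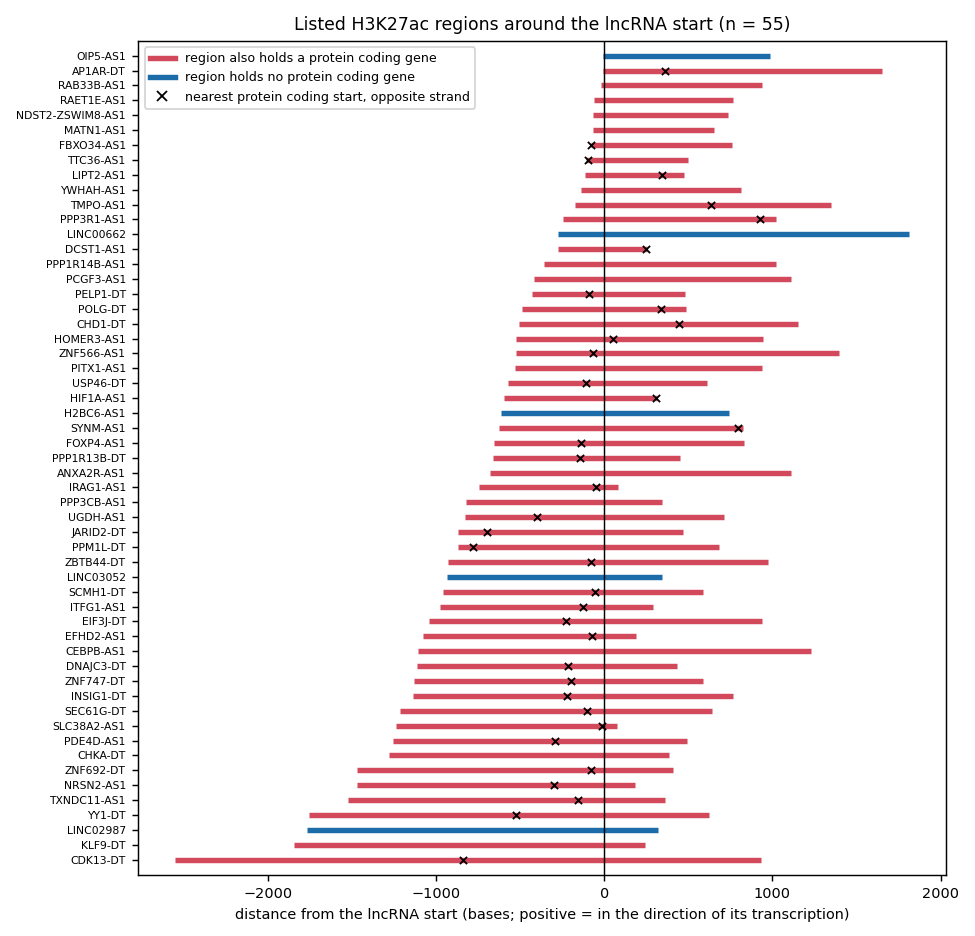
Listed H3K27ac region (bar) of each of the 55 members with a start inside it, by distance in bases from the lncRNA start, which is at 0 and points to the right. Crosses mark the nearest protein coding start with a promoter entry, where it is on the opposite strand and in the region. Of 37 crosses, 27 lie before the lncRNA start, as in divergent pairs, and 10 after it. Of the 55 bars 50 are red (a coding gene in the region) and 5 blue (none).

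The 3 lines were compared over the members. Of the 89 members, 20 in the authors' deposited table were past -0.5 in all 3 lines, 22.5%, where 25.3% of all 1029 assigned genes were. Sharing members numbered 16 of 67 (23.9%) and members without a coding gene 4 of 22 (18.2%). In KMS-11, 73 members were past -0.5 (background 82.9%), in KMS-12 70 (background 77.3%) and in RPMI8226 55 (background 65.1%). Below -1 the authors' deposited table listed 11 members in KMS-11 (background 13.4%), 17 in KMS-12 (background 19.1%) and 2 in RPMI8226 (background 4.37%). Values below -1 stood in at least 2 lines for 6 members (background 6.80%) and in all 3 lines for 0 members (background 0.583%). The rule itself used this contrast, so nothing is read from these counts.

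Of the members past -0.5 in 2 lines, RPMI8226 was the line not past it in 34, KMS-12 in 19 and KMS-11 in 16. These were 38.2%, 21.3% and 18.0% of the 89 members, against 34.9%, 22.7% and 17.1% of all assigned genes. Among the 22 without a coding gene, 10 (45.5%) fell short of -0.5 in RPMI8226 alone, against 24 of 67 sharing members (35.8%) and 34.9% of all assigned genes. LINC00662 and LINC02987, which have the same region, are both among the 10. KMS-12 had the lowest value in 40 of the 89 members, KMS-11 in 31 and RPMI8226 in 18, against 440, 356 and 233 of all 1029 assigned genes, which are similar shares. RPMI8226 was lowest in 17 of the 67 sharing members and in 1 of the 22 without a coding gene, HEY2-AS1, and in none of the 14 LINC genes. Both remaining lines were past -0.5 in 36 members without KMS-11, in 40 without KMS-12 and in 54 without RPMI8226. Such a dependence on each line follows because every listed region was past -0.5 in at least 2 lines, and nothing is read from these counts.

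By medians the classes were close when sharing meant a coding gene in the region. The 67 sharing members had median log2 fold changes of -0.64, -0.66 and -0.55 in the authors' deposited table. The authors' deposited table gave the 22 members without a coding gene medians of -0.72, -0.72 and -0.52. With the region common to LINC00662 and LINC02987 counted once, these were -0.77, -0.72 and -0.52. Over all 1029 assigned genes of the authors' deposited table the medians were -0.66, -0.67 and -0.57. The gap between a member's highest and lowest line had a median of 0.45 in sharing members and 0.63 in the others, against 0.51 over all assigned genes. The -DT genes had the narrowest gap, 0.41, and the LINC genes the widest, 0.69. When a coding gene within 1 kb counted as sharing, the RPMI8226 medians were -0.55 in sharing members and -0.35 in the others. With sharing by overlap, 10.4%, 14.9% and 2.99% of the 67 sharing members were below -1 in the 3 lines. Among the 22 others the shares were 18.2%, 31.8% and 0%, and over all assigned genes 13.4%, 19.1% and 4.37%. With 1 sample per line and treatment, none of these differences can be set against replicate spread.

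**Figure D2:**
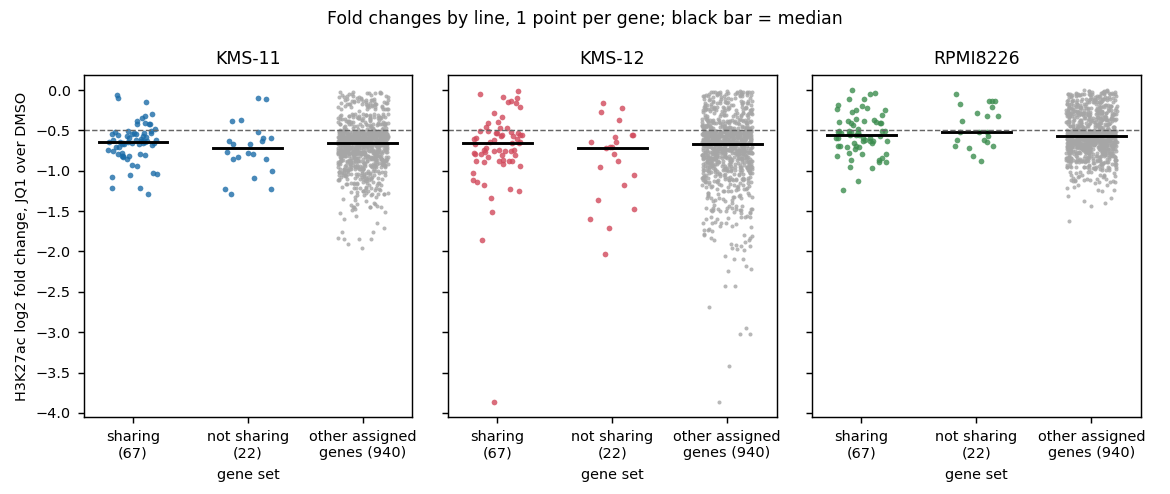
H3K27ac log2 fold change (JQ1 over DMSO) of 1 region per gene in each line, for the 67 sharing members, the 22 members without a coding gene and the 940 other assigned genes; black bars are medians and the dashed line is -0.5. The medians of the first class are -0.64, -0.66 and -0.55, and the lowest points are in KMS-12.

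CEBPB-AS1 had the lowest mean of all members. Its region (chr20:50190838-50193176) lies over CEBPB, a transcription factor gene of stress and inflammation, and holds the lncRNA start but not the coding start, which lies 1239 bp from the lncRNA start and just outside the region. The authors' deposited table gave -1.07, -3.86 and -0.37, or 52.4%, 93.1% and 22.6% less signal if the base is 2. KMS-12 thus stood far below the other lines, and RPMI8226 was not past -0.5. CEBPB and CEBPB-AS1 have this one measurement in common.

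Other sharing members with a low mean fell into those low in every line and those low in KMS-11 and KMS-12. POLG-DT, divergent in name but with its start 337 bp inside POLG, the mitochondrial DNA polymerase gene, was even across lines. The authors' deposited table gave it -0.95, -0.90 and -0.84. HLCS-AS1, at the gene of the enzyme that attaches biotin to carboxylases, was lowest in KMS-12, with -0.64, -1.85 and -0.79 in the authors' deposited table. ITFG2-AS1, listed at FKBP4, was lowest in KMS-11, with -1.06, -0.62 and -0.89 in the authors' deposited table. All of these were past -0.5 in the 3 lines. FOSL2-AS1, in a region over the gene of an AP-1 subunit, had -1.28, -1.18 and -0.24 in the authors' deposited table. NRSN2-AS1, at SOX12, was much alike, with -1.22, -1.14 and -0.31 in the authors' deposited table. RPMI8226 was the highest of the lines in both.

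The other sharing members past -0.5 in all 3 lines lay at genes of varied function. PDE4D-AS1, at a cAMP phosphodiesterase gene, had -0.93, -0.76 and -0.79 in the authors' deposited table. For PPP1R13B-DT, divergent by 146 bp from the gene of the p53-binding protein ASPP1, the authors' deposited table listed -0.81, -0.94 and -0.70. HOMER3-AS1, at a scaffold protein gene, had -0.86, -0.75 and -0.78 in the authors' deposited table. In these the lines lay close together. FOXP4-AS1, divergent by 138 bp from a forkhead factor gene, had -0.54, -0.88 and -0.95 in the authors' deposited table. YWHAH-AS1, at the 14-3-3 eta gene, had -0.79, -0.50 and -0.89 in the authors' deposited table, and USP46-DT, at a deubiquitinase gene, had -0.63, -0.88 and -0.66. KMS-11 was the highest line in FOXP4-AS1 and KMS-12 in YWHAH-AS1, while KMS-12 was the lowest in USP46-DT. PTOV1-AS1 had -0.82, -0.80 and -0.59 and C1QTNF7-AS1, at CPEB2, had -0.82, -0.78 and -0.54 in the authors' deposited table. CHD1-DT, at a chromatin remodeller gene, had -0.63, -0.57 and -0.70 and CDK13-DT, at the gene of a kinase of RNA polymerase II, had -0.56, -0.79 and -0.51 in the authors' deposited table. Last came C10orf95-AS1 with -0.64, -0.74 and -0.51, DCST1-AS1 with -0.63, -0.61 and -0.60 and MIA2-AS1, at a gene for export of large cargo from the endoplasmic reticulum, with -0.54, -0.66 and -0.52 in the authors' deposited table. DCST1-AS1 was the most even of the last group.

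Some sharing members were low in RPMI8226. RAET1E-AS1, at LRP11, had -0.32, -0.67 and -1.23 in the authors' deposited table. NDST2-ZSWIM8-AS1, at the heparan sulfate enzyme gene NDST2, had -0.82, -0.40 and -1.12 in the authors' deposited table, and MCM8-AS1, at CRLS1, had -0.42, -0.60 and -0.97. Each of these is among the 12 whose region holds no gene of exactly their name. Those 12 had a median of -0.61 in RPMI8226 in the authors' deposited table, against -0.52 in the 55 at their namesake, and 10 of the 12 and 33 of the 55 were past -0.5 there. Over all assigned genes the RPMI8226 median was -0.57 and 65.1% were past -0.5, and nothing is read from the split, which was looked at after these 3 genes.

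The remaining sharing members were past -0.5 in 2 lines. Those past it in KMS-11 and KMS-12 included lncRNAs at the amino acid transporter gene SLC38A2, the superoxide dismutase gene SOD1, the histone variant gene H3-3A, the transcription factor genes KLF9 and PITX1 and the chromatin remodelling gene BAZ1A. SOD1-DT was at -0.60 in KMS-11 and -1.03 in KMS-12, and its RPMI8226 value, -0.0012, was the highest of any region in the authors' deposited table. TMPO-AS1 was similar, with -0.75, -1.34 and -0.04 in the authors' deposited table. Those past -0.5 in KMS-11 and RPMI8226 included SEC61G-DT at a subunit of the protein translocon, DNAJC3-DT at a chaperone of the endoplasmic reticulum and TXNDC11-AS1 at a thioredoxin-domain protein gene. The authors' deposited table gave SEC61G-DT -1.21, -0.05 and -0.50. It gave DNAJC3-DT -0.54, -0.13 and -0.63 in the authors' deposited table, and TXNDC11-AS1 -0.57, -0.08 and -0.82. KMS-12 was the highest line in these 3, and in IRAG1-AS1, at RNF141, it had -0.01, the highest KMS-12 value of the authors' deposited table. Those past -0.5 in KMS-12 and RPMI8226 included HIF1A-AS1, at the gene of the oxygen-sensing factor, with -0.34, -0.57 and -0.73, and ZNF747-DT with -0.07, -0.64 and -0.69 in the authors' deposited table. These examples were chosen after their values were seen. Those not past -0.5 in RPMI8226 also included PPP1R14B-AS1, UGDH-AS1, KLF9-DT, KCNQ5-DT, EML2-AS1, AP1AR-DT, H3-3A-DT, MATN1-AS1, PELP1-DT, BAZ1A-AS1, PPP1R3B-DT, LIPT2-AS1, SYNM-AS1, SCMH1-DT and PPP3R1-AS1. Those not past it in KMS-12 also included ZBTB44-DT, JARID2-DT, EIF3J-DT, RAB33B-AS1 and CHKA-DT. Those not past it in KMS-11 also included PPP3CB-AS1, ZNF566-AS1, ZNF692-DT, EFHD2-AS1, TTC36-AS1 and ANXA2R-AS1. Across members that share, values ran from -1.28 to -0.07 in KMS-11, from -3.86 to -0.01 in KMS-12 and from -1.23 to -0.0012 in RPMI8226 in the authors' deposited table.

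**Figure D3:**
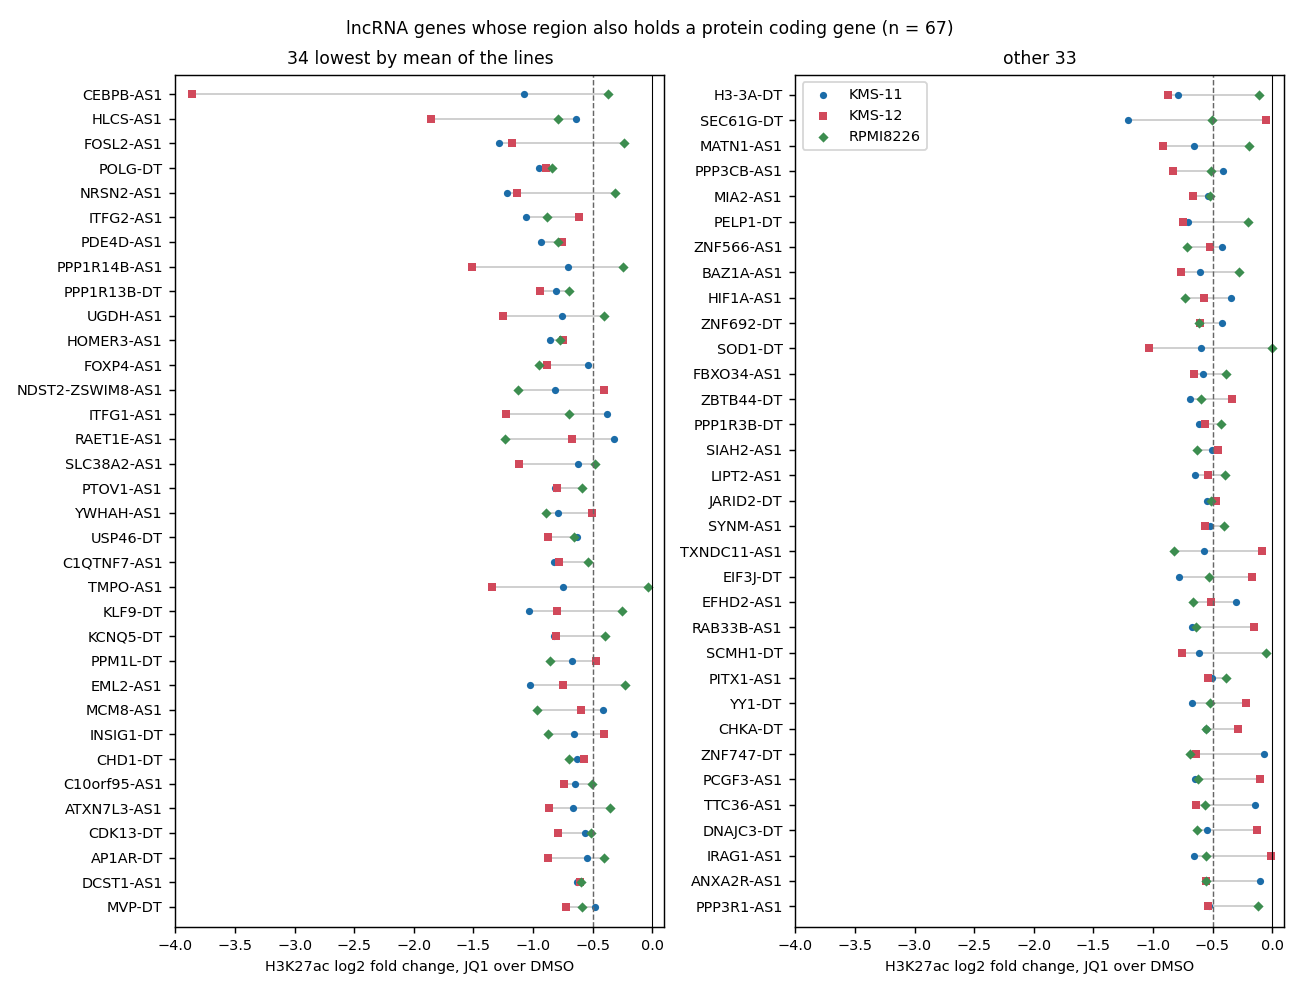
H3K27ac log2 fold change (JQ1 over DMSO) in each line for the 67 members whose region also holds a protein coding gene, ordered by the mean of the lines, 34 on the left and 33 on the right; grey lines join the lines of a gene and the dashed line is -0.5. CEBPB-AS1 stands out by its KMS-12 value of -3.86, and the 3 values of DCST1-AS1 lie closest together.

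The 22 members without a coding gene in the region held the mark away from annotated coding bodies, though 6 of the 22 had a coding gene within 1 kb. BHLHE40-AS1 had the lowest mean of the 17 among them that were tied by overlap. Its region (chr3:4976993-4979035) lay inside the lncRNA, 402 bp from BHLHE40, a basic helix-loop-helix repressor gene, and did not hold the lncRNA start. It had -1.22, -1.60 and -0.57 in the authors' deposited table. DDIT4-AS1 (chr10:72272856-72273581) was 343 bp from DDIT4, the gene of an inhibitor of mTORC1 signalling, with -0.998, -1.17 and -0.32 in the authors' deposited table. RBM38-AS1 (chr20:57390255-57390686), 710 bp from the gene of an RNA-binding protein, had -0.63, -0.88 and -0.88 in the authors' deposited table. RBM38-AS1 and BHLHE40-AS1 were the only members tied by overlap, with no coding gene in the region, that were past -0.5 in all 3 lines. RAB35-AS1, 257 bp from an endosomal GTPase gene, had -0.77, -0.28 and -0.51 and LINC00685, in the pseudoautosomal part of X and Y and 421 bp from GTPBP6, had -0.83, -0.16 and -0.63 in the authors' deposited table. H2BC6-AS1, 684 bp from the histone gene H2BC5, had -1.22, -0.22 and -0.72 in the authors' deposited table. KMS-12 was the highest line in these last 3, while it was the lowest in BHLHE40-AS1 and DDIT4-AS1.

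Further from coding genes, the regions lay inside LINC genes and a few antisense genes. LINC-PINT, a p53-induced lncRNA gene, had its region (chr7:130959583-130961322) 148772 bp from the nearest coding gene, and the authors' deposited table gave -0.59, -1.48 and -0.17. One of its 4 annotated starts, all outside the region, lies 169 bp from the start of the coding gene MKLN1 and is divergent from it. LINC01588 had a pair of listed regions and LINC00467 one, with none of their coding neighbours within 1 kb. LINC01588 was at -0.76, -0.72 and -0.32 in 1 region (chr14:50001602-50003284) and at -0.89, -0.26 and -0.59 in the other (chr14:49999943-50001206) in the authors' deposited table. The regions were thus low in different pairs of lines, although they lay 395 bp apart inside the same gene. LINC00467, whose region also holds the pseudogene SNX25P1, had -0.11, -1.05 and -0.61 in the authors' deposited table. LINC03052, whose region also holds the pseudogene ANKRD33BP1, had -0.37, -0.96 and -0.82 in the authors' deposited table. In both of these KMS-11 was the line that was not past -0.5. LINC00938 had -0.09, -0.58 and -0.52 and HEY2-AS1, 1219 bp from the gene of a Notch-responsive repressor, had -0.64, -0.37 and -0.70 in the authors' deposited table. OIP5-AS1, known as Cyrano from work in zebrafish and mouse, where it binds a microRNA, had -0.52, -0.70 and -0.21 in the authors' deposited table. Its annotated start lies 4 bases inside one end of the region. LINC00662 and LINC02987 share 1 region (chr19:27792126-27794215), which holds the starts of both and lies 1411105 bp from the nearest coding gene, and the authors' deposited table gave -0.67, -0.56 and -0.13. RPMI8226 was the highest line there and in OIP5-AS1.

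A tRNA gene lay in 3 of the 21 regions that represent the members without a coding gene, in none of the 67 of sharing members, and in 10 of all 838 regions (1.19%). The members were LINC01719 (TRH-GTG1-1), LINC02453 (TRD-GTC1-1) and LINC00324 (TRG-TCC3-1). LINC02453 had -0.85, -0.79 and -0.14 in the authors' deposited table, and LINC00324 had -0.85, -0.64 and -0.05. Both were low in KMS-11 and KMS-12 and near 0 in RPMI8226. Copies of a tRNA gene can be nearly identical, and the handling of reads they share is unknown here, so these regions are uncertain, as are those at the pseudogenes and at H2BC6-AS1.

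The 5 regions that overlap no protein coding or lncRNA gene had medians of -0.79, -1.36 and -0.52 in the authors' deposited table. LINC01719 was the nearest gene, 13248 bp away, to a region (chr1:146037261-146039348) with -1.28, -2.04 and -0.65 in the authors' deposited table. LINC01473, 43441 bp from its region (chr2:186129758-186130608), had -1.09, -1.71 and -0.52 in the authors' deposited table, and the nearest coding gene was 296468 bp away. LINC01354, 9824 bp from its region, had -0.79, -1.36 and -0.39 in the authors' deposited table. In all of these KMS-12 was lowest and RPMI8226 highest. CDR2-DT, whose region lies over the transcribed pseudogenes RRN3P3 and SMG1P1, had -0.38, -0.71 and -0.69 in the authors' deposited table. LINC01451, 768 bp from its region, had -0.59, -0.65 and -0.28 in the authors' deposited table. Nearness is the only link between these regions and the genes named.

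**Figure D4:**
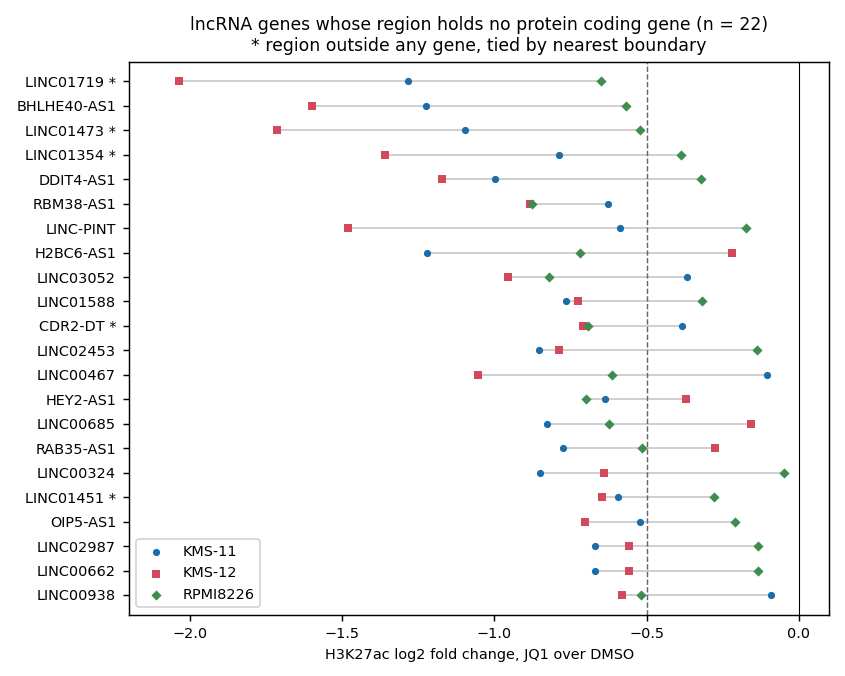
H3K27ac log2 fold change (JQ1 over DMSO) in each line for the 22 members whose region holds no protein coding gene, ordered by the mean of the lines; asterisks mark the 5 tied by nearest boundary and the dashed line is -0.5. RPMI8226 (diamonds) is right of the dashed line in 10 genes and KMS-12 (squares) in 4.

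Near the threshold the members were graded and not separate. Just inside it were SEC61G-DT, PITX1-AS1 and SIAH2-AS1, whose second-lowest values were -0.50, -0.50 and -0.51 in the authors' deposited table. PITX1-AS1 had -0.50, -0.54 and -0.38 and SIAH2-AS1, at a ubiquitin ligase gene, had -0.51, -0.46 and -0.63 in the authors' deposited table. Just short of being past -0.5 in all 3 lines were MVP-DT, SLC38A2-AS1 and PPM1L-DT, with highest values of -0.48, -0.48 and -0.47 in the authors' deposited table. Regions not past -0.5 in at least 2 lines are not listed.

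For context, 49 well known lncRNA and snoRNA host genes with other symbols were looked up, and 7 had a listed region. Of all 18330 annotated lncRNA genes, 205 were assigned to one. The list was picked by hand with earlier results known, so nothing is read from this count. SNHG7, DANCR and SNHG17 were past -0.5 in all 3 lines (background 25.3%), and MIR17HG, SNHG29, SNHG3 and CRNDE in 2 lines. SNHG7, which hosts small nucleolar RNAs, had -0.61, -0.83 and -0.88 in the authors' deposited table. MIR17HG, the host of the miR-17 cluster, had -0.97, -0.92 and -0.40 in the authors' deposited table. Another 116 assigned lncRNA genes had medians of -0.68, -0.70 and -0.55 in the authors' deposited table, with 23 of them (19.8%) past -0.5 in all 3 lines. The members' medians over all 89 were -0.64, -0.70 and -0.53 in the authors' deposited table.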

How the data were processed

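The series holds 6 H3K27ac ChIP-seq samples, 1 JQ1 and 1 DMSO sample in each of 3 lines, grouped by the labels' treatment field. The authors deposited 1 table of 838 regions with a log2 fold change (labelled LFC) per line and the number of lines in common. Per the submitters' processing notes, DESeq2 and MACS2 were among the tools and hg38 and GRCh38.p13 the builds; which step used which is not given. Aligner and normalization: not given in the sources used here.

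Each region was compared with RefSeq genes of GRCh38.p14 (20052 protein coding and 18330 lncRNA genes) by an overlap of at least 1 base with a gene body, or otherwise by nearest boundary. A gene with several regions was given the one with the lowest mean. Starts and strands came from the RefSeq promoter table, matched by gene ID. Distances to a region were taken from the nearest ends, and those between genes from start to start. Percentages past a threshold over all 1029 assigned genes are given as background. The assignment was checked on simulated regions. Python 3.11.15, numpy 2.4.6, pandas 2.3.3 and matplotlib 3.10.9 were used.

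No test was made, since the table has no value of a single sample and the rule used the fold changes; a fit over the 6 samples, planned if values allowed, was not possible. Genes named with values were the 10 members with the lowest mean, all past -0.5 in 3 lines, all without a coding gene in an overlapping region, the 3 lowest in each line, the 3 with the largest gap between lines, and the 3 just inside the threshold; others are marked. Members and lists were chosen with earlier results of these data known.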

Additional observations from a re-analysis of the deposited data

How the results depend on the processing

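No paired analysis was possible because the table has no value of a single sample, and the fold changes, which are within-line differences, are the values by which the regions were chosen. Asking for at least 50% of the region inside the gene body, where a region overlapped a gene, left 58 of the 89 members. Of the 58, 12 were past -0.5 in all 3 lines. The 5 members tied by nearest boundary were exempt and are among the 58, with LINC01719 and LINC01473 among the 12. Below -1 there were 6 members in at least 2 lines and 0 in all 3 lines (6.74% and 0 of the members, against 6.80% and 0.583% of all assigned genes). Without 1 line, both remaining lines were past -0.5 in 36 members (without KMS-11) to 54 (without RPMI8226), of which 28 to 40 shared their region with a coding gene. Leaving out KMS-12 gave 40 members, 31 of them sharing. Such losses follow because every listed region was past -0.5 in at least 2 lines. When a coding gene within 1 kb counted as sharing, the median of the others in RPMI8226 was -0.35 in place of -0.52. That setting took 6 members out of the class, namely BHLHE40-AS1, DDIT4-AS1, RBM38-AS1, H2BC6-AS1, RAB35-AS1 and LINC00685. Their RPMI8226 values were -0.57, -0.32, -0.88, -0.72, -0.51 and -0.63. What sets them apart was not tested. The other 37 values moved by less than 1.5 times (counts) or by less than the SD over the lines (medians). The depth is unknown, and each fold change stands without an error.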
